A study of Mus musculus with 12 samples.

Results

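The 2 by 2 of bacterial endotoxin (LPS) and the tobacco nitrosamine NNK was examined in mouse lung as an interaction, the change that LPS brought in NNK-treated mice minus the change it brought in mice without NNK. All 12 arrays of the series belong to this design, 3 for each arm of the design (PBS, LPS, NNK, and both agents, written LPS/NNK). The contrast was taken over 41174 probes that are not array controls. After probes too dim to measure were set aside, 21856 items remained, 13648 with a gene symbol and 8208 known only by an identifier.

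The mice were FVB/N (the strain is also labelled FVB/NJ), described as female and 7 weeks old at the start. LPS was given into the nose at 5 ug per mouse each week for 16 weeks. NNK was injected into the peritoneum at 3 mg per mouse during the first 4 weeks. The LPS/NNK mice received both agents, and the PBS mice neither, with lungs collected 1 week after the last treatment. Each array holds RNA of lung tissue, a mix of cells, so fewer cells of a type and less RNA per cell cannot be told apart.

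Endotoxin is sensed by Tlr4 with Cd14, Ly96 (MD-2) and Lbp, and signals through Myd88 and NF-kB to inflammatory cytokines. NNK is activated by cytochrome P450 enzymes to species that alkylate DNA, and it causes lung adenomas in mice. Interferon gamma, made mainly by T cells and natural killer cells, induces guanylate-binding proteins (Gbp), immunity-related GTPases (Irgm1, Igtp, Iigp1) and MHC class II genes.

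Values below are log2 signal relative to the 75th percentile of the same array, so that 1 unit is a 2-fold difference. Additivity on this scale means that the folds of both agents multiply. PBS enters the interaction and each difference from PBS, so if the 3 treated groups share 1 shift from PBS, the interaction equals minus that shift. The contrast alone therefore cannot separate a shift that is already complete with 1 agent from an effect particular to the combination. For that, each interaction call was read beside the differences of LPS/NNK from PBS, from LPS and from NNK, of which the last 2 do not use the PBS arrays.

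The PBS arrays stood apart before any contrast. Across all items, PBS arrays correlated with each other at 0.978 to 0.984 and with treated arrays at 0.878 to 0.933, whereas treated arrays of different groups correlated at 0.942 to 0.98. PBS arrays were brighter, with 75th percentiles of intensity of 699 to 984, against 183 to 510 on the treated arrays. Spots well above background made up 70.2% to 73.1% in PBS and 55.6% to 67.5% in treated arrays. PBS 1 and PBS 2 carried signal of the Y-linked genes Ddx3y, Eif2s3y, Kdm5d and Uty and no Xist signal above background, against the label of female mice, while PBS 3 and the 9 treated arrays carried Xist alone. PBS 2 was also the only array of its scan. Slide positions went with the groups, no slide held all 4 groups, and LPS was alone on its slides, so slide and group cannot be told apart for the interaction. The part of these differences in the results was not tested. Defining lung genes (Sftpc, Sftpb, Sftpd, Ager, Aqp5, Scgb1a1, Foxj1, Pecam1, Cdh5, Ptprc) were above background on all 12 arrays, as were the heart genes Myh6 and Nppa and the fat gene Adipoq. Rag1 of thymus was above background on 0 arrays. The liver gene Alb was above background on the 3 PBS and 3 NNK arrays and on 0 LPS or LPS/NNK arrays. It measured -4.93, -4.86 and -5.22 in PBS and -4.97, -1.71 and -2.31 with NNK, and its part in the results was not tested.

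The interaction was called for 8458 of 21856 items, or 38.7% (limma, Benjamini-Hochberg adjusted p under 0.05, 2-sided). Of these, 4396 were higher with both agents than the sum of the single shifts and 4062 lower. The single comparisons with PBS were larger still, since LPS was called in 56.0% of items, NNK in 51.5% and the combination in 55.1%. LPS/NNK differed from LPS in 4.1% of items and from NNK in 17.3%. The count depended on the processing. With raw median signals and normexp background correction in place of the processed, detrended signals it was 51 items, although 4512 had an unadjusted p under 0.05. Quantile normalization after that correction gave 7755, and leaving out PBS 1 and PBS 2 gave 2630.

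In most calls, both single-agent groups were called on the same side of PBS. The part in these shifts of the differences of the PBS arrays given above was not tested. In 4581 items (21.0% of those tested, 54.2% of the calls), LPS and NNK were each called on the same side of PBS, LPS/NNK was called on that side too, and the interaction was called against it. These are named shared shifts here. In a further 1687 items (7.72%), both single agents were called 1 way and the combined group was not called that way, and these are named reverted. In 1385 items (6.34%), exactly 1 agent was called and the interaction opposed it. Changes beyond additivity needed LPS/NNK called beyond PBS, LPS and NNK alike in the direction of the interaction. They also needed neither single agent called against that direction. These more-than-additive items came to 140 (0.641%), and 665 (3.04%) met none of these definitions. Genes called beyond every other group but with a single agent called the other way, such as Amd2 and Ccr2, were left in the reverted and 1-agent patterns.

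**Figure D1:**
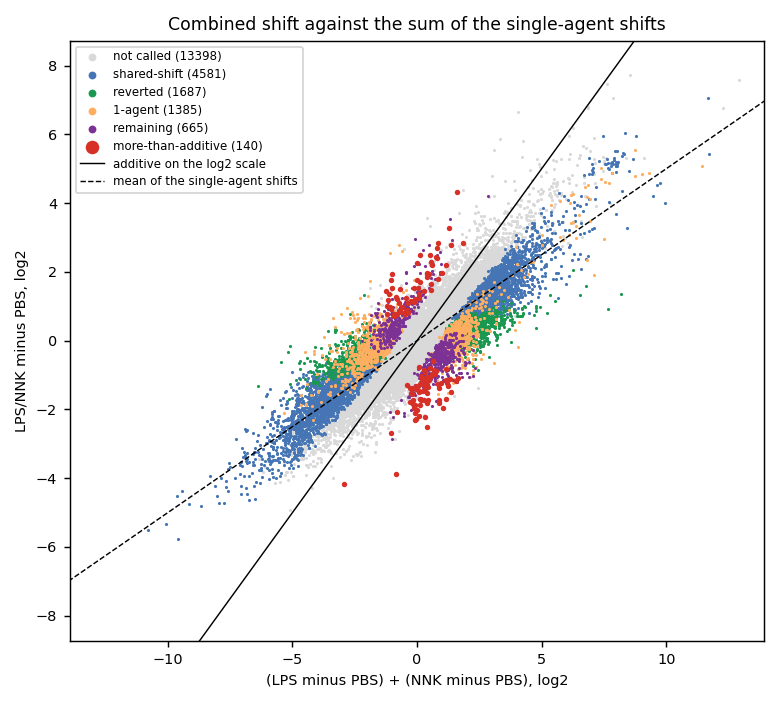
Each point is 1 of 21856 items, with the sum of the LPS and NNK shifts from PBS (log2) on the x axis and the LPS/NNK shift from PBS (log2) on the y axis, coloured by pattern. The 4581 shared shifts (blue) lie along the dashed line, the mean of the single shifts, and away from the solid line of additivity, while the 140 more-than-additive items (red) mostly have single shifts whose sum is near 0 and a combined shift away from 0.

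In the shared shifts, LPS/NNK lay near the level of either agent alone. Where the treated groups were higher than PBS (2189 items), the combined shift was a median 95.35% of the mean single shift. Where they were lower (2392 items), it was 92.7%. The combined level was called different from neither LPS nor NNK in 2000 of the 2189 (91.4%) and in 2168 of the 2392 (90.6%). Such calls were also uncommon over all items, at 4.1% against LPS and 17.3% against NNK. The definition of this pattern, an interaction against both single shifts, itself favours a combined level near theirs. The combined level was called beyond LPS or NNK in 116 and 154. It was called nearer PBS than both in 1 and 2, and nearer PBS than 1 of them in 72 and 68. Of the lower set, 913 items had a treated group with no array above background, so that their shift is only a bound. Without PBS 1 and PBS 2 the count of shared shifts was 1103, and with normexp 31.

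Among genes above background on all 12 arrays, the shared rises named by size were Ltf, Cd177, Fbxo2, Upk3a, A2ml1 and Scgb3a1. Ltf, the lactoferrin of neutrophil granules and airway glands, measured -0.09, -0.43 and 3.04 in the PBS arrays, 5.55, 6.70 and 4.96 with LPS, 6.27, 5.61 and 4.39 with NNK, and 6.29, 6.09 and 2.77 with both. Cd177, a neutrophil surface protein, measured -2.99, -4.06 and -2.10 in PBS, 2.56, 2.74 and 1.24 with LPS, 1.45, 1.36 and 1.23 with NNK, and 2.54, 1.51 and 0.34 with both. For Cd177 each treated array lay above all PBS arrays and the treated groups overlapped, whereas for Ltf the third PBS array, the one with Xist, lay above 1 of the LPS/NNK arrays. The calprotectin and granule genes S100a8, S100a9, Ngp and Camp had no interaction call. Upk3a, a uroplakin of epithelial membranes, measured -4.43, -3.57 and -4.01 in PBS and between -0.53 and 0.94 on the 9 treated arrays. Its interaction was -4.28 ± 0.48 (SE, adjusted p = 0.000593), nearly the size of either single shift (4.14 and 3.84). Scgb3a1, a secretoglobin of airway secretory cells, followed the same course with means of 4.77, 7.91, 7.29 and 6.73 in PBS, LPS, NNK and LPS/NNK.

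Most shared falls had the same form. In 2 of 2392, LPS/NNK was called nearer PBS than both single groups. These 2 were Vapb and Taf15, named here for the size of the interaction. Arl6ip5, a membrane protein of the endoplasmic reticulum, measured 4.26, 4.16 and 3.97 in PBS, 0.92, 0.91 and 0.74 with LPS, 0.28, 0.40 and 0.56 with NNK, and 1.16, 0.67 and 0.45 with both. The combined arrays overlapped both single groups and none came near PBS, giving an interaction of 3.62 ± 0.33 (adjusted p = 0.000316). It was the named gene that kept its call under each of the 26 alternative settings. Vapb, a tether between the endoplasmic reticulum and other organelles, measured 4.73, 4.60 and 4.79 in PBS, 1.86, 2.03 and 2.36 with LPS, 1.94, 1.89 and 2.32 with NNK, and 3.44, 3.29 and 2.93 with both. Here the combined arrays lay between PBS and both single groups without overlap, so the fall was smaller with both agents than with either alone. Taf15, an RNA-binding protein, had means of 0.15 in PBS, -2.04 with LPS, -2.69 with NNK and -0.77 with both. Dpt, dermatopontin of the extracellular matrix, had an interaction of 3.22 ± 0.75 (adjusted p = 0.0066), with its PBS arrays at 3.56 to 3.82 and its treated arrays at -0.37 to 2.15.

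**Figure D2:**
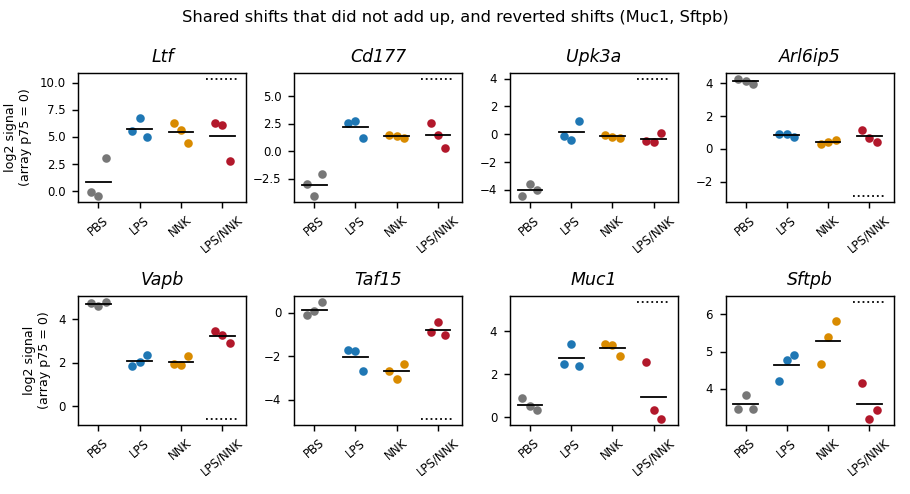
Log2 signal relative to the 75th percentile of the array is on the y axis for 8 genes, with 1 point for each array, a solid bar at each group mean and a dotted bar at the level that additivity would give for LPS/NNK. The 3 treated groups of Ltf, Cd177, Upk3a and Arl6ip5 lie together, those of Vapb and Taf15 fall less with both agents, and Muc1 and Sftpb return toward PBS with both.

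Reverted items (7.72% of all) include 4 of 20 measured genes of the alveolar type 2 cell, which makes surfactant. The surfactant genes Sftpc and Sftpd were not among them and had no interaction call. With both agents they were called above PBS, at means of 10.51 against 8.76 and 7.56 against 6.3. Sftpb, a surfactant protein, measured 3.45, 3.83 and 3.47 in PBS, 4.22, 4.77 and 4.91 with LPS, 4.66, 5.38 and 5.81 with NNK, and 4.15, 3.20 and 3.43 with both. Both single groups lay above PBS and the combined group overlapped PBS (interaction -2.74 ± 0.47, adjusted p = 0.00196). Muc1, a membrane mucin of these cells, measured 0.88, 0.54 and 0.34 in PBS, 2.37 to 3.40 with LPS, 2.83 to 3.42 with NNK, and 2.58, 0.33 and -0.08 with both. The array LPS/NNK 2, the brightest of its group, lay at the level of the single groups, while the other LPS/NNK arrays lay at or below PBS. In the other direction, Amd2, a copy of the S-adenosylmethionine decarboxylase gene, measured 0.91 to 1.34 in PBS, -0.31 to 0.31 with LPS, -0.13 to 0.39 with NNK, and 1.42, 3.15 and 2.83 with both (interaction 3.46 ± 0.53, adjusted p = 0.00136). Signal of Amd2 could include its near-identical parent gene. Arid5b, a chromatin regulator, had the largest interaction of the reverted genes named (-5.19 ± 1.03), with LPS/NNK arrays as far apart as -0.43 and 3.57. The 28S ribosomal RNA probe (Rn28s1, chosen after its values were seen) fell in the same set. It measured -0.18, -0.56 and -2.19 in PBS and 0.41, -1.79 and -1.71 with both agents, against 0.09 to 1.35 on the other treated arrays. It separated LPS/NNK 2 from LPS/NNK 3 and LPS/NNK 6, as Muc1 did, and its part in these results was not tested.

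Where exactly 1 agent was called and the interaction opposed it, LPS/NNK was mostly not called against PBS. Such a selection favours a combined level near PBS. Over all items, LPS/NNK was called against PBS in 55.1%. Of 189 items of this pattern that LPS raised, 133 were not called against PBS with both agents. Of 479 that LPS lowered, 413 were not. For NNK the corresponding counts were 399 of 452 raised and 235 of 265 lowered. Il1b, the inflammatory cytokine interleukin-1 beta, was lower than PBS with LPS (means 1.28 and -0.77) and measured 0.99 with both, but its PBS arrays ranged from -0.23 to 2.77. Chad, a cartilage matrix protein, rose with LPS from -0.40 to 1.99 and measured 0.23 with both. Cdk5r2, an activator of Cdk5, rose with NNK from -1.31 to 3.65 and measured 0.59 with both, yet its PBS arrays ranged from -4.12 to 0.34. Marco, a scavenger receptor of alveolar macrophages, measured 3.43, 0.18 and 1.78 in PBS, 0.85, -0.21 and 0.53 with LPS, -1.46, -0.38 and -1.0 with NNK, and 0.91, 0.95 and 2.33 with both. Its NNK arrays lay below all the others, while PBS and LPS/NNK overlapped.

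The 140 more-than-additive items comprised 60 with LPS/NNK higher and 80 with it lower than every other group. In 130 of them neither single agent was called. LPS alone was called in 9 and NNK alone in 1. The LPS/NNK arrays lay apart from all 9 other arrays in 122. Among all items, irrespective of any test, the 3 LPS/NNK arrays lay above all others in 3.38% and below in 3.21%. Using the comparisons that leave PBS out, LPS/NNK was called above both LPS and NNK in 240 items (1.1%) and below both in 222 (1.02%).

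This count moved more than those of the other patterns when single arrays were left out. It was 0 with normexp and 0 with the series of slide numbers as a term, and 16 without PBS 1 and PBS 2. Leaving out single arrays moved it from 15 (without LPS/NNK 3) and 21 (without LPS/NNK 6) to 693 (without LPS/NNK 2), the LPS/NNK array with the most spots above background, 66.3% against 57.3% and 56.4%. Leaving out any 1 PBS, LPS or NNK array gave 52 to 118. Of the 140 items, 5 kept the pattern in each of the 12 fits that leave out 1 array, 20 in at least 10, and the median item in 4.

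Genes that LPS raised and that rose further with NNK were few and included Ifng. Ifng itself, interferon gamma, measured -2.28, -3.36 and -1.92 in PBS, -0.15, 0.72 and -0.56 with LPS, -3.98, -3.14 and -3.18 with NNK, and 1.24, 1.83 and 2.30 with both. No LPS/NNK array overlapped any other group, and NNK alone was not called different from PBS (-0.91, adjusted p = 0.0895). The interaction was 2.70 ± 0.61 (adjusted p = 0.00561), and LPS/NNK exceeded LPS by 1.78 (adjusted p = 0.0388). Trpm2, a calcium channel of phagocytes opened by oxidative stress, measured -2.09, -3.36 and -1.71 in PBS, -0.45, -0.56 and -0.87 with LPS, -2.86, -2.81 and -2.97 with NNK, and 0.55, 1.56 and 0.52 with both. Ffar2, the receptor for short-chain fatty acids on neutrophils and other leukocytes, measured -2.02, -2.46 and -3.42 in PBS, -0.89, -1.41 and -1.73 with LPS, -3.13, -2.87 and -3.20 with NNK, and -0.09, 0.81 and -0.09 with both. Both had LPS/NNK arrays above all others, with interactions of 2.0 ± 0.55 and 1.99 ± 0.52 (adjusted p = 0.0133 and 0.0108). Ptpn22, a phosphatase that restrains lymphocyte receptor signalling, and Fgd3, an exchange factor for Cdc42, were chosen after their values were seen. With Zpbp2 they were the other genes of this form that have a symbol. Their means ran -0.40, 0.70, -0.72 and 2.02, and -2.89, -1.81, -2.59 and -0.11, in PBS, LPS, NNK and LPS/NNK, with interactions of 1.65 ± 0.49 and 1.41 ± 0.43. For each of these 5 genes the difference of LPS/NNK from LPS passed at adjusted p = 0.0148 to 0.0493. The pattern held in 4 of the 12 fits that leave out 1 array for Ifng and Ffar2, in 2 for Trpm2 and Ptpn22, and in 10 for Fgd3. Ptprc, the CD45 of all leukocytes, was lower with NNK (2.22) than in the other groups (3.31, 2.95 and 3.74 in PBS, LPS and LPS/NNK), with an interaction of 1.87 ± 0.44, and its part in these results was not tested.

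In the other rises, LPS/NNK was called above every other group and neither single agent was called, except that NNK was called for Mug1 (1.19). Ckap5, a microtubule polymerase of the mitotic spindle, measured -1.20, -1.60 and -2.15 in PBS, -2.55, -2.46 and -2.20 with LPS, -2.36, -1.70 and -1.78 with NNK, and -0.89, 0.43 and 0.77 with both. Its interaction of 2.80 ± 0.55 (adjusted p = 0.00313) was the largest among the named genes of this pattern that were above background on all arrays and rose. Cenpf, a kinetochore protein, had LPS/NNK arrays at -1.38, -0.19 and -0.86, the lowest of which lay below a PBS array at -1.25. Pinx1, a telomerase inhibitor, measured 1.22, -0.01 and -0.08 in PBS, 0.66, 0.70 and 0.53 with LPS, -0.06, 0.09 and 0.29 with NNK, and 2.38, 3.27 and 2.25 with both. Pinx1 and Ckap5 kept the pattern in 11 of 12 fits that leave out 1 array, Leo1 in 10, Vta1 in 8 and Cenpf in 3. Leo1, a subunit of the Paf1 transcription elongation complex, had an interaction of 2.10 ± 0.42, and Vta1, of the endosomal sorting machinery, 2.20 ± 0.43. Mitf, a transcription factor of melanocytes, mast cells and osteoclasts, and Arhgap10, a GTPase-activating protein, kept the pattern in all 12 such fits and were chosen for that. Arhgap10 measured -0.34, -0.37 and -1.14 in PBS, -0.77, -0.75 and -0.21 with LPS, -0.15, -0.16 and -0.25 with NNK, and 1.31, 1.18 and 1.46 with both. The LPS/NNK arrays of Mitf were at -1.82, -2.35 and -1.96, above the other 9 at -4.41 to -3.32. The interaction of Mitf turned to -0.24 with normexp (adjusted p = 0.807).

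Genes called lower in LPS/NNK than in every other group included a defining gene of the airway. Scgb1a1, the secretoglobin of club cells, measured 7.97, 7.92 and 7.68 in PBS, 8.27, 8.10 and 8.08 with LPS, 7.96, 7.88 and 7.80 with NNK, and 5.68, 6.85 and 6.86 with both. The 9 other arrays lay within 7.68 to 8.27 and the LPS/NNK arrays below all of them (interaction -1.71 ± 0.42, adjusted p = 0.00792), a pattern kept in all 12 fits that leave out 1 array. Ppia, cyclophilin A and a common reference gene, measured 3.15, 3.12 and 2.55 in PBS, 2.16, 3.05 and 3.41 with LPS, 3.04, 2.86 and 2.92 with NNK, and 1.23, 0.56 and 0.69 with both. It was chosen because it too kept the pattern in all 12. Ppia has many processed copies in the mouse genome, and this is 1 probe. Adrb1, the beta-1 adrenergic receptor, measured -0.25, -0.05 and -0.84 in PBS, -0.75, -0.46 and -0.91 with LPS, 0.58, 0.50 and -0.04 with NNK, and -1.50, -4.14 and -3.05 with both. Jup, the junction protein plakoglobin, measured 1.59 to 2.20 in PBS, 2.03 to 2.73 with LPS, 2.55 to 3.14 with NNK, and 1.70, -0.12 and -0.25 with both, so that LPS/NNK 2 lay within the PBS range. Stk25, a kinase of the STRIPAK complex, and Etv5, a transcription factor of alveolar type 2 cells, had the same array nearest to the other groups, at 2.25 against 0.48 and 0.94, and at -0.22 against -1.43 and -2.08. Of 12 fits that leave out 1 array, Adrb1 kept the pattern in 7, Jup in 5, and Stk25 and Etv5 in 4 each.

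**Figure D3:**
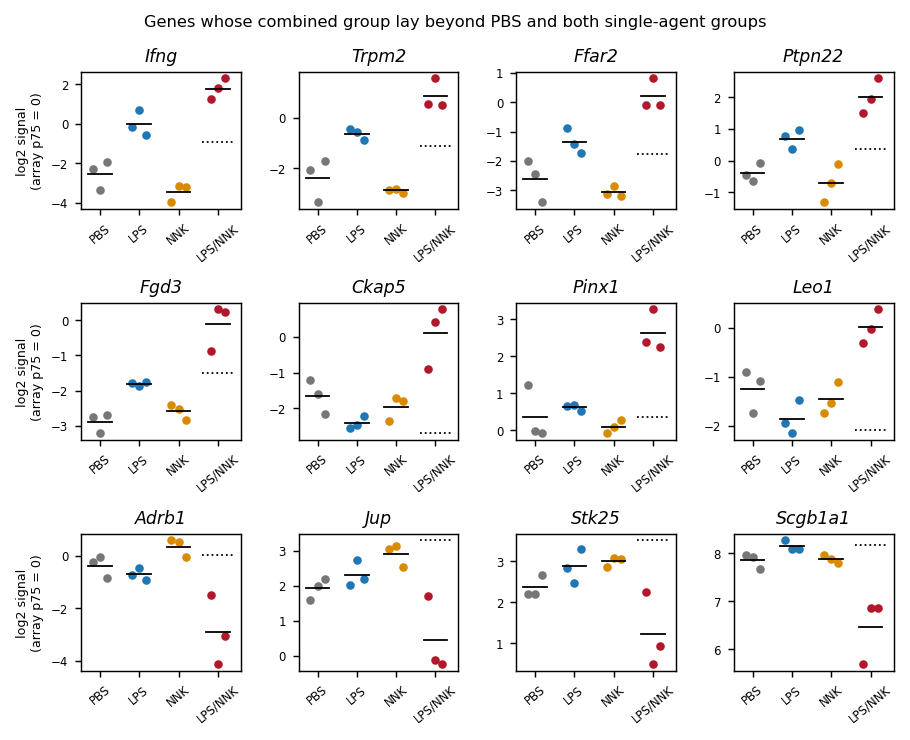
Log2 signal relative to the 75th percentile of the array is on the y axis for 12 genes, with 1 point for each array, a solid bar at each group mean and a dotted bar at the level that additivity would give for LPS/NNK. For Ifng, Trpm2, Ffar2, Ptpn22 and Fgd3 the LPS arrays lie above PBS and the LPS/NNK arrays above LPS, while Scgb1a1 is flat in 3 groups and lower in LPS/NNK.

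By share called, the interferon-induced GTPases and antiviral genes differed most among the gene lists from the background of 20.1% called higher and 18.6% called lower. Of 26 measured, 14 (53.8%) had a higher interaction and 0 a lower one, with a median interaction of 1.81 against 0.01 over all items. Of these genes, 0 met the more-than-additive definition. Gbp5 was called above PBS, LPS and NNK, but NNK alone was called below PBS (-1.54), which the definition does not allow. NNK alone lay below PBS in 13 of the 26 (23.7% of all items), with a median difference of -1.13, while the median difference from PBS was 0.44 with LPS and 1.0 with both. Without PBS 1 and PBS 2 the count was 12 of 26, where 12.0% of all items were called in either direction. Leaving out single arrays gave 10 to 15. With the series of slide numbers as a term it was 3 (median 0.68), and with normexp 0, with a median of 1.24 where that over all items was -0.39. The list's median stayed above that of all items by 0.66 to 2.33 in every alternative with list values, which were not computed for every probe on its own.

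Gbp5 and Ifit3 had the smallest p of the list, and Ifit2 the third. Their promoter windows (RefSeq, GRCm38.p6, from 250 bases before to 50 after the start of the gene) are shown because these genes led the list with the highest share of calls. Capitals mark matches on either strand to 2 copies of GAAA with any 2 bases between them, the core repeat of the interferon-stimulated response element, and to TTCNNNGAA, the gamma-activated site.
Gbp5, chr3:142496684-142496983, plus strand: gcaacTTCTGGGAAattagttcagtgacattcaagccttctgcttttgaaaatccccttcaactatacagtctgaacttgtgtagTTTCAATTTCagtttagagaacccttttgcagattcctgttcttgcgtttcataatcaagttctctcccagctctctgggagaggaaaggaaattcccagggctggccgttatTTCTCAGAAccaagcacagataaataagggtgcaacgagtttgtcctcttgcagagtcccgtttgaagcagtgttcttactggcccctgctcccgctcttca
Ifit3, chr19:34583279-34583578, plus strand: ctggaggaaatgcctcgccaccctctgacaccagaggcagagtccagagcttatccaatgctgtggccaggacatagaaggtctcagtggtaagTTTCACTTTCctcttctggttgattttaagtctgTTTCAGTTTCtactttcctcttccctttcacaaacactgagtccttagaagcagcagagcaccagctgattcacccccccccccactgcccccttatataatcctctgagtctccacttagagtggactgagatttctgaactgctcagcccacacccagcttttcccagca
Ifit2, chr19:34550444-34550743, plus strand, the first of 2 windows: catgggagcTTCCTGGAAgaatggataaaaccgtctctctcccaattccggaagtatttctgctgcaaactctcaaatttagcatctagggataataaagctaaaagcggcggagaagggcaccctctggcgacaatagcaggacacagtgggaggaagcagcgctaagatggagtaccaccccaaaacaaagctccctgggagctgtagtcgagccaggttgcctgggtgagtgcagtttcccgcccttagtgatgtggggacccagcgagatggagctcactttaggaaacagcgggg
The GAAA repeat occurred at 1 place in Gbp5, at 2 places in Ifit3 and at 0 in Ifit2. Of the 14 genes called, 10 were matched to a window used here, and 9 of these (90.0%) held the repeat, against 4 of 9 uncalled members (44.4%) and 3.99% of 27025 genes. TTCNNNGAA occurred in 4 of the 10, 2 of the 9 and 9.55% of all. These are matches of letters and not binding sites.

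Gbp5, a guanylate-binding protein that promotes inflammasome assembly, measured 0.59, -0.23 and 1.57 in PBS, 1.28, 1.99 and 1.44 with LPS, -1.25, -0.52 and -0.92 with NNK, and 2.87, 3.85 and 3.02 with both. NNK lay below and LPS/NNK above every other array (interaction 3.21 ± 0.59, adjusted p = 0.00245). Iigp1, an immunity-related GTPase, measured 3.82, 2.02 and 4.15 in PBS, 2.76, 4.73 and 3.62 with LPS, 0.75, 1.23 and 1.20 with NNK, and 4.74, 5.80 and 4.61 with both. Its LPS and LPS/NNK arrays overlapped, and NNK again lay below all others. Irgm1, of the same GTPase family, had means of 1.87, 1.94, 0.25 and 2.93 in PBS, LPS, NNK and LPS/NNK. Ifit3, an antiviral RNA-binding complex member, measured 3.35, 2.94 and 2.68 in PBS, 1.68 to 2.41 with LPS, 1.69 to 1.95 with NNK, and 2.69, 3.23 and 2.82 with both. It and Ifit1, Ifit2 and Gbp7 were lower with each single agent and not called against PBS with both. In Gbp2b the NNK arrays were not well above background, and LPS/NNK was at least 22.7-fold higher than NNK. The PBS arrays of these genes varied, with PBS 2 the lowest PBS array for Gbp5, Iigp1, Irgm1 and Igtp. The members Oasl1, Oas1a, Oas2 and Irf7 had negative interactions that were not called (-1.86, -1.25, -1.40 and -1.30). All members of this paragraph other than Gbp5, Ifit3 and Iigp1 were chosen after their values were seen.

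**Figure D4:**
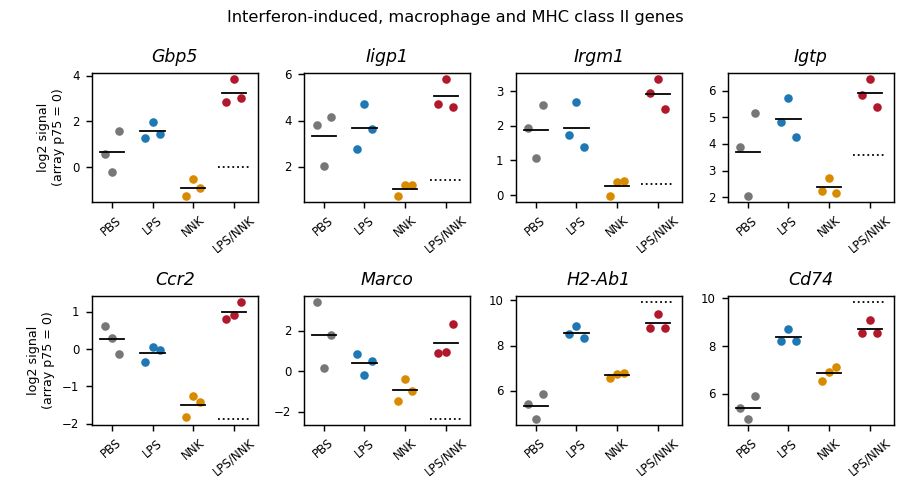
Log2 signal relative to the 75th percentile of the array is on the y axis for 8 genes, with 1 point for each array, a solid bar at each group mean and a dotted bar at the level that additivity would give for LPS/NNK. NNK arrays are the lowest for Gbp5, Iigp1, Irgm1, Ccr2 and Marco, whereas for the MHC class II genes H2-Ab1 and Cd74 the LPS and LPS/NNK arrays lie together above NNK, and NNK above PBS.

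The interferon gamma axis and its T helper 1 chemokines had a share called that moved with the arrays and the processing. Of 16 measured, 14 were higher with LPS than PBS (26.1% of all items), and 3 (18.8%) had a higher interaction, Ifng, Cxcr6 and Irf1, against 20.1% of all items. Leaving out single arrays gave 2 to 7 higher and 0 to 2 lower. Without PBS 2 the higher count was 7 of 16, where 3515 of all 21856 items were higher. With the series of slide numbers as a term 1 was higher and 1 lower, and the list's median turned to -0.38. Cxcr6, a chemokine receptor of resident T cells, measured -0.22, -0.74 and -0.18 in PBS, 1.96, 2.43 and 1.49 with LPS, -1.76, -1.30 and -1.11 with NNK, and 2.78, 2.87 and 3.80 with both. LPS/NNK lay above LPS without overlap, but their difference of 1.19 was not called (adjusted p = 0.0583). Irf1, the transcription factor induced by interferon gamma, had an interaction of 0.99 ± 0.37 that kept its call in 8 of 26 alternatives. The chemokines Cxcl9 and Cxcl10 had larger interactions (2.44 and 1.80) that were not called (adjusted p = 0.168 and 0.333).

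Genes of MHC class II and antigen presentation had lower interactions at about the background rate. LPS was above PBS in 15 of 17 measured, yet 0 had a higher and 3 (17.6%) a lower interaction. Cd74, the invariant chain, measured 5.39, 4.96 and 5.90 in PBS, 8.22, 8.73 and 8.23 with LPS, 6.56, 6.93 and 7.13 with NNK, and 8.54, 9.09 and 8.56 with both. LPS and LPS/NNK overlapped and NNK lay between them and PBS. The interaction of -1.11 ± 0.41 was at the threshold (adjusted p = 0.0471) and held in 8 of 26 alternatives. H2-DMa, which loads peptides, had -2.07 ± 0.46, and the third call was H2-Q7, a class I gene. The list's median interaction was -0.37. Relative to all items, its median ranged from -1.03 to 0.22 over the alternatives, turning positive with normexp (0.22) and without the filter (0.15).

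T cell and checkpoint genes rose with LPS in 17 of 22 (26.1% of all items). A higher interaction was called in 4 (18.2%, against 20.1% of all items) and a lower one in 2 (9.09%, against 18.6%). Leaving out single arrays gave 1 to 6 higher, and median scaling 1 higher and 4 lower. Cd3g, a chain of the T cell receptor complex, measured 0.00, 0.19 and 0.38 in PBS, 0.74, 1.39 and -0.34 with LPS, -1.43, -1.40 and -0.95 with NNK, and 1.44, 1.36 and 1.83 with both. NNK lay below all other arrays, and LPS and LPS/NNK overlapped. Lag3, an inhibitory receptor, went the other way, with -3.38, -4.51 and -4.23 in PBS, 0.21 to 0.72 with LPS, -1.54 to -1.25 with NNK, and 0.59 to 1.64 with both (interaction -2.05 ± 0.48). Havcr2 (Tim-3), Cd274 (PD-L1) and Icos had interactions of 1.31, 1.27 and 1.12, and the T cell kinase Zap70 -1.99. Of 12 cytotoxic genes, Gzma and Fasl (16.7%) were called higher, with interactions of 2.82 and 1.87. Gzma had means of -0.86, -3.51, -2.77 and -2.61 in PBS, LPS, NNK and LPS/NNK, and Fasl turned to -0.14 with normexp. B cell and plasma cell genes were above PBS with LPS in 17 of 21. Their interactions were higher in 2 (9.52%, Ltb and Ms4a1) and lower in 5 (23.8%, Tnfrsf17, Pou2af1, Cd22, Mzb1 and Xbp1). Tnfrsf17, the plasma cell receptor BCMA, had means of -3.65, 0.31, -3.10 and -1.38 in PBS, LPS, NNK and LPS/NNK.

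Of 25 monocyte and macrophage genes, 3 (12%) had a higher interaction (Ccr2, Marco and Fcgr1) and 6 (24%) a lower one. Over all items the shares were 20.1% and 18.6%. Ccr2, the receptor that draws monocytes into tissue, measured 0.61, 0.30 and -0.12 in PBS, -0.35, 0.06 and -0.03 with LPS, -1.83, -1.26 and -1.43 with NNK, and 0.80, 0.91 and 1.26 with both. NNK lay below and LPS/NNK above all other arrays, with an interaction of 2.86 ± 0.37 (adjusted p = 0.000879). Gpnmb, a glycoprotein of lipid-laden macrophages, was a shared rise (-1.05 in PBS, and 1.94, 2.66 and 2.06 with LPS, NNK and both). Among 17 neutrophil genes and chemokines, Cxcr2, Il1r2, Csf3r and Trem1 had higher (23.5%) and Ltf and Mmp9 lower interactions (11.8%). The interaction of Il1r2, which was above background on 1 NNK array, turned to -0.38 with normexp. Of 25 genes of endotoxin sensing and NF-kB, 7 (28%) were higher and 4 (16%) lower. The higher count was 2 without NNK 2, 3 without NNK 3 or LPS/NNK 3, 1 without PBS 1 and PBS 2, and 0 with the series of slide numbers, where the median was -0.36. The 4 lower were Lbp, which hands endotoxin to its receptor (-2.44), the NF-kB subunits Nfkb2 and Relb (-1.84 and -1.56) and the adaptor Myd88 (-0.85). Nfkb2 had means of 0.99, 3.38, 2.87 and 3.43 in PBS, LPS, NNK and LPS/NNK, a shared rise. Of 14 type 2, mast cell and eosinophil genes, 0 were called in either direction.

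Among epithelial lists, the alveolar type 2 genes had the highest share of lower calls. Of 20 alveolar type 2 genes, 10 (50%) had a lower interaction and 1 a higher one (Lamp3), with a median of -1.06. Its median minus that of all items ranged from -1.19 to -0.12 over the alternatives. Without PBS 1 and PBS 2, 5 were lower, with quantile or cyclic loess scaling 6, with the series of slide numbers 5 and with normexp 0. Beside Sftpb and Muc1, Nkx2-1, the transcription factor of lung epithelium, had means of 1.11, 2.38, 2.65 and 1.78 in PBS, LPS, NNK and LPS/NNK (interaction -2.13 ± 0.44). Sftpc, the most specific surfactant gene, was not called (-0.82, adjusted p = 0.231), and its LPS/NNK mean of 10.51 was above PBS at 8.76. Of 19 club, goblet and basal cell genes, 4 had a lower interaction, Scgb1a1, Scgb3a1, Cyp2f2 and Foxa3, and 0 a higher one. That share of lower calls was near the background of 18.6%. With both agents, Scgb1a1 was called below PBS (-1.39) and Scgb3a1 above it (1.96). Cyp2f2 (0.20) and Foxa3 (0.73) were not called against PBS. The median interaction of this list was lower than that of alveolar type 2 genes, and lay below that of all items by 0.74 to 1.80 over the alternatives. Its median difference of LPS/NNK from PBS was 0.72. Foxa3 was above background on 1 PBS and 1 LPS/NNK array. Of 14 motile cilium genes, Tppp3, Tubb4b and Tekt4 had a lower interaction (21.4%) and 0 a higher one. With both agents these genes were not called against PBS (0.15, -0.60 and 0.54). Of 16 alveolar type 1 genes, 3 (18.8%, against 20.1% of all items) had a higher interaction (Col4a3, Cav2 and Hopx). These 3 were shared falls, with LPS/NNK minus PBS at -1.24, -2.36 and -1.46. Another 5 (31.2%) had a lower interaction, among them Ager at -1.22 ± 0.40. The balance turned to 6 and 2 with quantile normalization and to 6 and 1 with cyclic loess.

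Markers of tissue other than lung moved with these lists. Of 19 markers of blood, heart, fat and thymus, 9 (47.4%) had a lower interaction and 1 a higher one, with a median of -1.64. Ckm, the creatine kinase of muscle, measured -0.55, -0.53 and -0.59 in PBS, 0.05 to 0.77 with LPS, -0.07 to 1.40 with NNK, and -0.72, -1.02 and -2.17 with both. Plin1, of fat droplets, had means of -1.63, 0.70, 0.07 and -0.93 in PBS, LPS, NNK and LPS/NNK. Their part in the results for epithelium was not tested. Without PBS 1 and PBS 2, 2 of these markers were called lower.

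Other lists held calls in both directions, beside 20.1% higher and 18.6% lower over all items. Shares higher and lower were 30.8% and 7.69% for proliferation, 10.3% and 31% for matrix, and 7.41% and 33.3% for clock genes. They were 12.5% and 25% for endothelial, 7.14% and 21.4% for xenobiotic, and 9.09% and 22.7% for MAPK and tumour genes. For p53 targets they were 20% and 15%, for ribosomal protein genes 13.3% and 23.3%, and for respiratory chain genes 4.17% and 16.7%. Proliferation genes had 8 higher and 2 lower of 26. Nusap1 (2.36) and Bub1 (2.46) led and were lower than PBS with each agent and not called against PBS with both. The 2 lower, Mcm2 and Ube2c, were shared rises. Over the list, LPS was called above PBS in 12 and below in 4, and NNK above in 5 and below in 6. The list's median difference from PBS was 0.73 with LPS, -0.12 with NNK and 1.145 with both. The count of higher interactions was 4 without NNK 3 and 10 without PBS 2. With the series of slide numbers it was 2, beside 2 lower, and the median interaction lay at -0.07 from that of all items. Fibroblast and matrix genes had 3 higher and 9 lower of 29, among the latter Tgfb1 (-2.59) and Fn1 (-2.25). Clock and immediate-early genes had 2 higher, Clock and Cry1, and 9 lower of 27, and endothelial genes 3 and 6 of 24, with Vwf at -2.12 and Gja5 at -2.30. Genes of xenobiotic metabolism, relevant to the activation of NNK, had 2 and 6 of 28, with Ephx1 and Cyp2s1 at -2.27 and -2.47. Genes of MAPK output and lung tumours had 2 and 5 of 22, with Hmga2 at 2.55 among the higher, although it had no LPS or LPS/NNK array above background. Targets of p53 had 4 and 3 of 20, ribosomal protein genes 4 and 7 of 30, and respiratory chain genes 1 and 4 of 24. These 3 splits turned with the scaling. Ribosomal protein genes had 9 higher and 2 lower with quantile normalization, 9 and 1 with cyclic loess, and 1 and 11 with median scaling. Respiratory chain genes had 6 and 1, 7 and 1, and 0 and 6. Targets of p53 had 8 and 4, 8 and 1, and 0 and 7, and had 0 higher without PBS 1. Monocyte and macrophage genes likewise turned to 6 and 4 with quantile normalization or cyclic loess, and neutrophil genes to 2 and 4 with median scaling. The interferon-induced list had 11 to 14 higher and 1 lower under these 3 scalings.

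**Figure D5:**
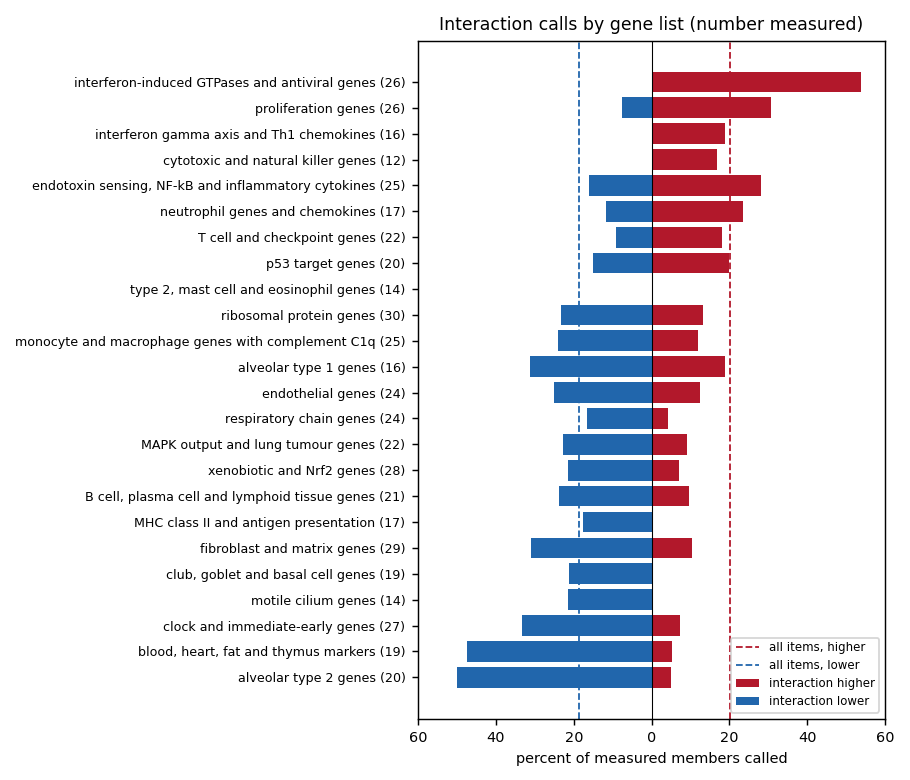
Bars give the percent of measured members of each gene list whose interaction was called lower (left, blue) or higher (right, red), with the number measured in brackets and the share over all items as dashed lines. Interferon-induced genes reach 53.8% higher with 0 lower, and alveolar type 2 genes 50% lower.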

How the data were processed

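RNA of 12 lung samples was measured on Agilent 1-colour arrays. Per the file headers, the deposited intensity of each spot was background-subtracted and detrended within the array by Agilent Feature Extraction (10.7 per the submitters' processing notes) and not scaled between arrays. The deposited table holds log2 values, for which the processing notes also name Partek. Its array medians lay within 0.000237 of log2 intensity minus the 75th percentile of the array, computed here. That percentile was taken over probes because it matched the deposited values, after a percentile over spots had not.

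Outlier spots were left out and spots of a probe averaged, and 37 probes whose spots were all outliers on some array were dropped. RefSeq symbols were found for 59.2% of probes. The test took the 28334 probes that the scanner software marked as well above background throughout 1 or more of the groups, and the brightest probe stood for its gene or identifier. Joining unnamed probes by identifier was settled after first counts had been seen. Of 2048 called genes with several probes, 28 had another probe called the other way. Other probes that were not called do not enter that count. Over 5167 genes with several probes, the interaction of the probe used correlated at 0.773 with the mean of the others.

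The 12 arrays entered 1 fit of group means in limma 3.58.1 (R 4.3.3; the data.table package, version 1.17.8; figures in Python 3.11.15 with matplotlib 3.10.9 and pandas 2.3.3), with 8 residual and 5.49 prior degrees of freedom. A difference was called where its 2-sided p, adjusted by Benjamini-Hochberg over all items, was under 0.05. An exact permutation test of 3 arrays against 3 cannot go below 0.1. The fit was also run on simulated data with independent noise. Such data cannot show how the differences of the PBS arrays or the slides entered the calls. Errors are standard errors of the fit, n = 3 arrays in each group. The labels number the samples without saying that each is a separate mouse, so p-values measure the spread between these samples, which may be technical. No array had a saturated spot. The number of arrays limits the precision.

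Normexp was planned on mean signals, and the median signals were used instead (offset 50). Alternatives covered background correction, scaling, filter, probes, slide, replicate number, the PBS arrays and leaving out each array. Members, lists and tests were chosen with earlier results of these data known. Genes were named by the size of the interaction within each pattern among items above background on all 12 arrays (20 more-than-additive, 12 shared-shift, 6 reverted, 8 for 1 agent), then 6 more-than-additive genes dim on some array, in each list the 2 called members of smallest p, and members of a count of 5 or fewer. Clone names, identifiers and genes of the sex chromosomes were passed over. A further 20 genes were chosen after their values were seen. Counts of each list under the alternatives, and of how often an item kept the more-than-additive pattern, were likewise added after seeing the data. Replicate numbers of the labels were not taken as pairs, since deviations of same-numbered arrays did not all correlate. Some genes that these rules would name are not reported here.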

Additional observations from a re-analysis of the deposited data

Results flagged for a closer look

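Each result here is one in which the effect of LPS differed between mice with and without NNK by the test of that difference, the interaction itself. Over all items, 8458 were called. The values below are the interactions (log2) of the named genes, which were chosen for their size or p and are not evidence beyond the calls.

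More-than-additive genes above background on all arrays were 2.80 for Ckap5, 2.70 for Ifng, 2.37 for Cenpf, 2.27 for Pinx1, 2.20 for Vta1 and 2.19 for Zc3h15. They continued with 2.10 for Leo1, 2.01 for Fam204a, 2.0 for Trpm2, 1.99 for Ffar2, 1.97 for Pde5a and 1.76 for Lactb. On the lower side they were -2.91 for Adrb1, -2.85 for Jup, -2.73 for Cyp2d22, -2.55 for Pias3, -2.43 for Adcy5, -2.30 for Stk25, -2.27 for Add1 and -2.23 for Scube2. Genes dim on some array were -2.99 for Dpysl5, -2.86 for Stk40, -2.72 for Nup188, 2.69 for Cd200r1, -2.67 for Mindy4 and -2.53 for Hjv. Cd200r1, an inhibitory receptor of myeloid cells, was not well above background with LPS, and LPS/NNK was at least 2.32-fold higher than LPS. Those chosen after their values were seen were 1.65 for Ptpn22, 1.41 for Fgd3, 1.05 for Zpbp2, 1.61 for Mug1, 1.46 for Arhgap10, 1.56 for Mitf and -2.04 for Ppia.

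Shared rises were -5.27 for Ltf, -5.11 for Cd177, -4.33 for Fbxo2, -4.28 for Upk3a, -3.96 for A2ml1 and -3.70 for Scgb3a1. Shared falls were 4.11 for Taf15, 3.79 for Vapb, 3.62 for Arl6ip5, 3.33 for Hsd17b12 and 3.22 for Dpt. Reverted genes were -5.19 for Arid5b, -4.43 for Muc1, -4.21 for Srrm4, 3.90 for Ddx25, 3.46 for Amd2 and 3.42 for Fgf7, and, chosen after its values were seen, -3.84 for Rn28s1. Genes called for 1 agent were 4.18 for Trim55, 3.1 for Il1b, -2.52 for Chad and -2.50 for Edem2 with LPS, and -5.18 for Cdk5r2, 3.83 for Gbp8, 3.75 for Marco and 3.63 for Iigp1 with NNK.

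Among interferon genes the values were 2.20 for Cxcr6, 0.99 for Irf1, 3.21 for Gbp5 and 1.99 for Ifit3. Chosen after their values were seen, others were 2.60 for Irgm1, 1.89 for Ifit1, 2.36 for Ifit2, 3.00 for Gbp7, 3.51 for Gbp2b, 2.31 for Isg15, 1.48 for Rtp4, 2.73 for Gbp4, 2.30 for Zbp1, 1.73 for Gbp2 and 2.32 for Igtp. Antigen presentation gave -2.07 for H2-DMa, -1.11 for Cd74 and -1.28 for H2-Q7. Lymphocyte genes gave 2.40 for Cd3g, -2.05 for Lag3, 1.31 for Havcr2, 1.27 for Cd274, 1.12 for Icos, -1.99 for Zap70, 2.82 for Gzma and 1.87 for Fasl, with 1.87 for Ptprc (chosen after its values were seen). B cell and plasma cell genes gave 2.41 for Ltb, -2.24 for Tnfrsf17, 1.21 for Ms4a1, -1.02 for Pou2af1, -1.46 for Cd22, -1.23 for Mzb1 and -1.42 for Xbp1. Myeloid genes gave 2.86 for Ccr2, -3.59 for Gpnmb, 1.54 for Fcgr1, 2.40 for Cxcr2, 2.64 for Il1r2, 1.24 for Csf3r, 1.76 for Trem1 and -1.98 for Mmp9. Endotoxin signalling gave -2.44 for Lbp, -1.84 for Nfkb2, -1.56 for Relb and -0.85 for Myd88.

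Cell cycle genes gave 2.36 for Nusap1, 2.46 for Bub1, -1.55 for Mcm2 and -1.63 for Ube2c. Targets of p53 gave -1.65 for Zmat3, -1.33 for Phlda3, 1.66 for Ddit4, 0.88 for Gadd45a, 1.12 for Pmaip1, 0.94 for Mdm2 and -1.15 for Sesn2. MAPK and tumour genes gave 2.55 for Hmga2, -2.13 for Nkx2-1, -1.41 for Phlda1, -1.16 for Spry1, -3.56 for Sox9 and -2.08 for Etv5. Alveolar genes gave -2.74 for Sftpb, 1.34 for Lamp3, -1.47 for Igfbp2, 1.80 for Col4a3, 1.36 for Cav2, 1.48 for Hopx, -1.59 for Scnn1a, -1.10 for Scnn1g, -1.22 for Ager and -1.23 for Gprc5a. Airway genes gave -3.94 for Foxa3, -1.71 for Scgb1a1, -1.32 for Cyp2f2, -1.69 for Tppp3, -2.03 for Tubb4b and -1.42 for Tekt4.

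Vessel genes gave -2.12 for Vwf, -2.30 for Gja5, 1.35 for Tie1, 1.96 for Erg and 1.77 for Egfl7, and matrix genes -2.59 for Tgfb1, -2.25 for Fn1, 1.27 for Lum, 0.95 for Dcn and 2.15 for Postn. Xenobiotic genes gave -2.27 for Ephx1, -2.47 for Cyp2s1, 1.28 for Fmo2 and 1.67 for Gsta1, and clock genes -2.09 for Bhlhe41, -1.73 for Cry2, 1.68 for Cry1 and 2.44 for Clock. Ribosomal protein genes gave 2.05 for Rpl4, -1.20 for Rps15, 1.46 for Rpl5 and 1.12 for Rps6, and respiratory chain genes -1.73 for Ndufb8, -1.09 for Ndufv1, 1.20 for Uqcrc2, -1.09 for Uqcrc1 and -1.07 for Cox4i1. Markers of other tissues gave -3.01 for Ckm, -3.33 for Plin1 and 1.28 for Dntt.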

How the results depend on the processing

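Of 8458 interaction calls, quantile normalization gave 8877, median scaling 8877 and cyclic loess 8815, but median scaling turned the split to 3054 higher and 5823 lower (34.4% higher against 52.0%), since it moved the median of all items to -0.30. With normexp on the raw median signals, which also replaced the detrended signal, the counts were 51 calls, 31 shared shifts, 19 reverted, 0 for 1 agent, 0 more-than-additive and 1 remaining, with a median of all items of -0.39. The following 4 alternatives were chosen after these values were seen. Normexp with an offset of 0 gave 1 call and 1 shared shift, and an offset of 10 gave 2 and 2, with 0 in the other patterns. Normexp followed by quantile normalization gave 7755 calls, 4458 shared shifts and 100 more-than-additive items, of which 54 were among the 140. Leaving out LPS/NNK 2 and NNK 2 gave 556 more-than-additive items. In the 5464 brightest items the interactions with and without normexp correlated at 0.994 across items, which are not independent, with a median standard error of 0.548 against 0.402, and in the 5464 dimmest the slope was 0.261. Without the filter on dim probes there were 13184 calls (32.0% higher), 8898 shared shifts and 49 more-than-additive items, and with every probe on its own 228 of the latter. Where only probes above background on all 12 arrays were kept, 43.1% of the calls were higher. The series of slide numbers as a term gave 4613 calls, 2354 shared shifts, 728 reverted, 0 more-than-additive and 359 remaining, and leaving out PBS 1 and PBS 2 gave 2630, 1103, 501, 16 and 406, with 604 for 1 agent. Slide as a random block (correlation 0.241) gave 8872 calls. The fit with the replicate number as a block gave 8655 calls, 4455 shared shifts and 260 more-than-additive items, and deviations of same-numbered arrays correlated at -0.15 to 0.41, so the numbers were not taken as pairs. Leaving out each array in turn gave 6219 to 9972 calls, 3186 to 4663 shared shifts, 1019 to 2738 reverted, 861 to 1766 for 1 agent, 15 to 693 more-than-additive and 354 to 790 remaining. On the linear signal, 139 of 140 more-than-additive items and 4559 of 4581 shared shifts kept their sign. Of 168 named genes, 6 kept their call with normexp, 78 without PBS 1 and PBS 2, 93 with the series of slide numbers, and 127 to 159 when 1 array was left out. Genes that reversed, each with normexp and none past the threshold, were Cd200r1 (-0.52), Icos (-0.33, and -0.06 at an offset of 10), Fasl (-0.14), Il1r2 (-0.38), Hmga2 (-0.17), Cry1 (-0.10), Dntt (-0.02), Mitf (-0.24), Zpbp2 (-0.29, and -0.02 at an offset of 10) and Mug1 (-0.84, and -0.05 and -0.40 at offsets of 0 and 10). The cause of these changes was not tested. The brightness of the treated arrays limits what can be measured: shares of spots above background ran from 55.6% to 73.1%, and a shift into background is only a bound.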
